A study of Mus musculus with 3 samples.

Results

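AP-1, ATF and EGR factors were examined as a group of 10 transcription factor genes, Fos, Fosl2, Jun, Junb, Jund, Atf3, Batf, Maff, Egr1, and Egr2. The members are the genes whose name on the array equals one of these symbols, taken from spots that are not controls, and they were 10 of the 34821 gene names of the array design, with 11 probes and 29 spots per array. The cells were BMDMs, macrophages grown with M-CSF from bone marrow of C57BL/6J mice, and all of them were stimulated for 20 h before RNA was taken. Each condition was measured on 1 Agilent array of 1 colour. The first condition was CpG, a DNA ligand of TLR9, alone. The second, labeled IFN-g+IL-10RB, was IFN-g with a block of the IL-10 receptor and without CpG. In the third, labeled triple and written here as Triple, CpG, IFN-g, and the IL-10 receptor block were given together, so that IFN-g and the block were shared by 2 of the 3 conditions. No array of unstimulated macrophages was analysed here, and the labels do not say whether the RNAs came from separate mice or cultures.

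Fos and Jun proteins pair through leucine zippers to form AP-1, which binds TGANTCA elements. Atf3, Batf, and Maff are zipper proteins too, which pair with Jun proteins or with other zipper proteins, and Batf and Maff lack a domain that activates transcription. Egr1 and Egr2 are zinc finger proteins that bind GC-rich elements. In macrophages many of these genes are immediate-early genes, whose RNA appears within minutes of a signal through TLRs and MAP kinases and often declines within hours, so that a 20 h sample shows the level late in the response. Batf pairs with Jun proteins and binds next to IRF factors, Atf3 is known to restrain cytokine genes in macrophages, and Egr factors act in myeloid differentiation.

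With a single array for each condition, differences between conditions have no replicate check, and none was tested. The processed signal, an intensity in fluorescence units after background subtraction, is given for each array as deposited. Differences are log2 ratios of signals after each array was scaled to its 75th percentile, and a gene is called higher or lower when the scaled signals differed more than 2-fold and the brighter one was well above background. The scanner software gives each signal an error of about 10.0%, and Maff, Egr1, and Egr2 had errors of up to 18.2%. A gene is called detected where its signal was well above background. All 10 members were detected on all 3 arrays, as were 16512 of the 34813 genes measured, and no spot was saturated. Actb, a gene of the cytoskeleton taken as a reference, gave signals of 396152 in CpG, 382988 in IFN-g+IL-10RB, and 399252 in Triple, and its log2 differences lay between 0.03 and 0.10. Of 10 macrophage markers 9 were found by name, Spi1 being the exception, and all 9 were detected on every array, with a summed signal of 895702 in CpG, 860311 in IFN-g+IL-10RB, and 795144 in Triple. Single markers moved more than this sum, and in Triple over IFN-g+IL-10RB Cd14 was 16.9-fold higher and Cd68 was 2.24-fold lower, while 3 markers were higher and 2 were lower in CpG over IFN-g+IL-10RB. Of the T cell markers Cd3e, Cd4, and Lck were detected on every array and Cd3g, Cd3d, Cd8a, and Cd2 on none, and of the B cell markers Cd79a and Cd79b were detected and Ms4a1, Pax5, and Blk were not. The summed signal of the 5 B cell markers was 886 in CpG, 279 in IFN-g+IL-10RB, and 183 in Triple, and that of the 7 T cell markers ranged from 2630 to 3006. The 9 neutrophil and precursor markers summed to 3341 in CpG, 1783 in IFN-g+IL-10RB, and 2252 in Triple, with Mpo, Prtn3, Ltf, and Ngp detected on none. Most of that sum was Elane, while S100a8 was 9.51-fold and Camp at least 5.34-fold higher in Triple over IFN-g+IL-10RB, and S100a9 was detected on the other arrays but not in Triple. The 6 stromal cell markers summed to 625, 349, and 971 in the same order, with Dcn at least 13.2-fold higher in Triple over IFN-g+IL-10RB. The part of these other cell types in the differences below was not tested, and in bulk RNA fewer cells of a type and less RNA per cell cannot be told apart.

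The promoters of the members are shown for 4 genes, because they carry elements for the families that the members belong to, and because of their patterns. Maff and Batf were far higher in Triple than in IFN-g+IL-10RB, Batf and Fos were at opposite ends in Triple and lie near each other on chromosome 12, and Egr2 was more than 2-fold higher in CpG than on both other arrays. RefSeq windows of GRCm38.p6, from 250 bases before to 50 after a start, were taken for 9 of the 10 members, 15 windows in all. Egr1 was left out of this search, so its promoter was not tested for any element. Both strands were searched, and capitals mark every match to a searched element. In the Maff window (chr15:79347270-79347569, plus strand), capitals mark, from left to right, an EGR element, a CRE, and a GAS element.
Maff: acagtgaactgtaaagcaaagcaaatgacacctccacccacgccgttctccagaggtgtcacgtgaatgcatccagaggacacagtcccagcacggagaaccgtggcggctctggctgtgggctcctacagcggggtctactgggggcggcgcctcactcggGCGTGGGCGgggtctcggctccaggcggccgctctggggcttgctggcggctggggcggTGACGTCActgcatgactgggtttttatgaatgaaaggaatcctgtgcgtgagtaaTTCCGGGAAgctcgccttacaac
In the Batf window (chr12:85686470-85686769, plus strand), the capitals mark its only match, a short CRE site.
Batf: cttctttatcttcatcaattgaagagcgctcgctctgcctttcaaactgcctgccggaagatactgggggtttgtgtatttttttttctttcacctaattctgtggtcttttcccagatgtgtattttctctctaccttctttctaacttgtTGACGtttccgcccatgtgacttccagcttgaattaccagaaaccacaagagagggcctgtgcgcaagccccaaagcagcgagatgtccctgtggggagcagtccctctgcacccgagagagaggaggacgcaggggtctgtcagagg
In the Fos window (chr12:85473640-85473939, plus strand), they mark an NF-kB element, short CRE sites, and a TATA box.
Fos: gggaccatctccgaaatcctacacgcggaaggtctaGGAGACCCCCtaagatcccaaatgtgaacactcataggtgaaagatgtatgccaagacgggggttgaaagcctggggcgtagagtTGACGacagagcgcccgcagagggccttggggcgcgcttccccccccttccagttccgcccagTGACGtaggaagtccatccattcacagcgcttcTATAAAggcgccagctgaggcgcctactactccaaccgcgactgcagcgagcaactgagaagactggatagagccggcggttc
In the Egr2 window (chr10:67537619-67537918, plus strand), they mark short CRE sites and, between them, a CArG box.
Egr2: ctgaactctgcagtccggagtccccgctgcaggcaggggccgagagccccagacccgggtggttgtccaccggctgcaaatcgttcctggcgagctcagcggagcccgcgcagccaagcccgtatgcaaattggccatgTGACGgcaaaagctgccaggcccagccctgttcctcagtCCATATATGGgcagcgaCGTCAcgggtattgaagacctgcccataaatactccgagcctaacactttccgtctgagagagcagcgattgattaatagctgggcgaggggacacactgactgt

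The AP-1 element TGANTCA and the longer element of small Maf proteins, the MARE, which contains it, were in the windows of 0 of the 9 members. Over all 32851 promoter windows, TGANTCA was in 7.81% and the MARE in 0.423%. The short CRE site TGACG was found in 6 members (Fos, Junb, Atf3, Batf, Maff, and Egr2) and in 20.8% of all windows, and members with several windows had more chances to hold it. The full CRE, TGACGTCA, which contains the short site on each strand, was found for Maff, at positions -29 to -22 from the start of the window shown, and in 1.79% of all windows. GCGNGGGCG, bound by Egr proteins, was found in Fosl2 and Maff and in 5.55% of all windows, and TTCNNNGAA, the GAS element of IFN-g responses, was found for Maff and in 8.3% of all windows. The CArG box, bound by Srf, was found in Egr2 and in 1.63% of all windows. The NF-kB element was found in Fos, Fosl2, and Maff and in 4.51% of all windows, and TATAAA was found in Fos and Junb and in 13.6%. Jun and Jund held none of the searched elements in these windows. A match describes letters and is not a bound site, and a window without a match says nothing of the factor.

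Between Triple and each of the other arrays 7 of the 10 members differed more than 2-fold, and between CpG and IFN-g+IL-10RB 3 did. In Triple over IFN-g+IL-10RB, 6 of the 10 members were higher (Junb, Atf3, Batf, Maff, Egr1, and Egr2) and 1, Fos, was lower. Of all genes measured, 3.56% were higher and 5.01% were lower in that comparison. In Triple over CpG, 5 members were higher (Junb, Atf3, Batf, Maff, and Egr1) and 2 were lower (Fos and Egr2), against 4.12% and 4.58% of all genes. In CpG over IFN-g+IL-10RB, 2 members were higher (Batf and Egr2) and 1 was lower (Egr1), against 2.75% and 3.19% of all genes. These shares are lower than those among the genes detected on all arrays, to which all members belong, where 5.14% were higher and 8.21% lower in Triple over IFN-g+IL-10RB, 6.04% and 7.01% in Triple over CpG, and 3.71% and 4.8% in CpG over IFN-g+IL-10RB. In at least 1 comparison 7 members differed more than 2-fold, as did 13.1% of all genes measured and 20.3% of those detected on all arrays. The median log2 difference of the members was 1.20 in Triple over IFN-g+IL-10RB, 0.87 in Triple over CpG, and 0.39 in CpG over IFN-g+IL-10RB. For genes detected on all arrays these medians were -0.04, -0.05, and 0.00. Each array enters 2 of these comparisons, so they are not independent of each other.

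**Figure D1:**
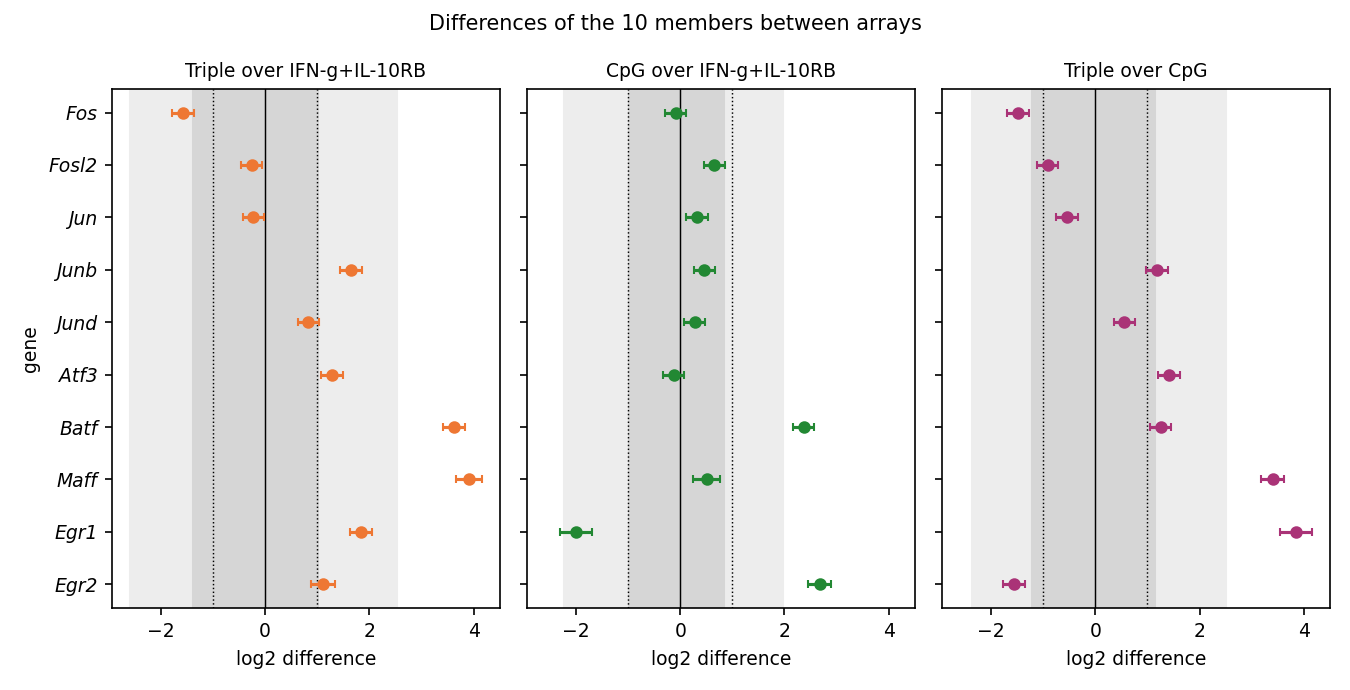
Log2 difference of each member (vertical axis) in the 3 comparisons, 1 array per condition. Points are the measured differences and bars the error given by the scanner software (1 SE), dotted lines mark 2-fold, and the shaded bands hold 90% (dark) and 98% (light) of the 16512 genes detected on all arrays. Batf and Maff lie beyond the light band in Triple over IFN-g+IL-10RB, Batf and Egr2 lie beyond it in CpG over IFN-g+IL-10RB, and Maff and Egr1 lie beyond it in Triple over CpG.

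The plot of the signals gives the values behind these counts. Of the 10 members, 5 were more than 2-fold higher in Triple than on both other arrays (Junb, Atf3, Batf, Maff, and Egr1), against 2.09% of all genes measured and 2.55% of the genes detected on all arrays. In 1 member, Fos, the Triple signal was more than 2-fold below both others, against 2.77% and 4.83%. Fosl2, Jun, and Jund stayed within 2-fold in all comparisons, as did 86.9% of all genes measured and 79.7% of those detected on all arrays. Triple had the highest of the 3 signals in 6 members, against 44.4% and 32.1%. Egr2 was the only member whose middle signal was in Triple.

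**Figure D2:**
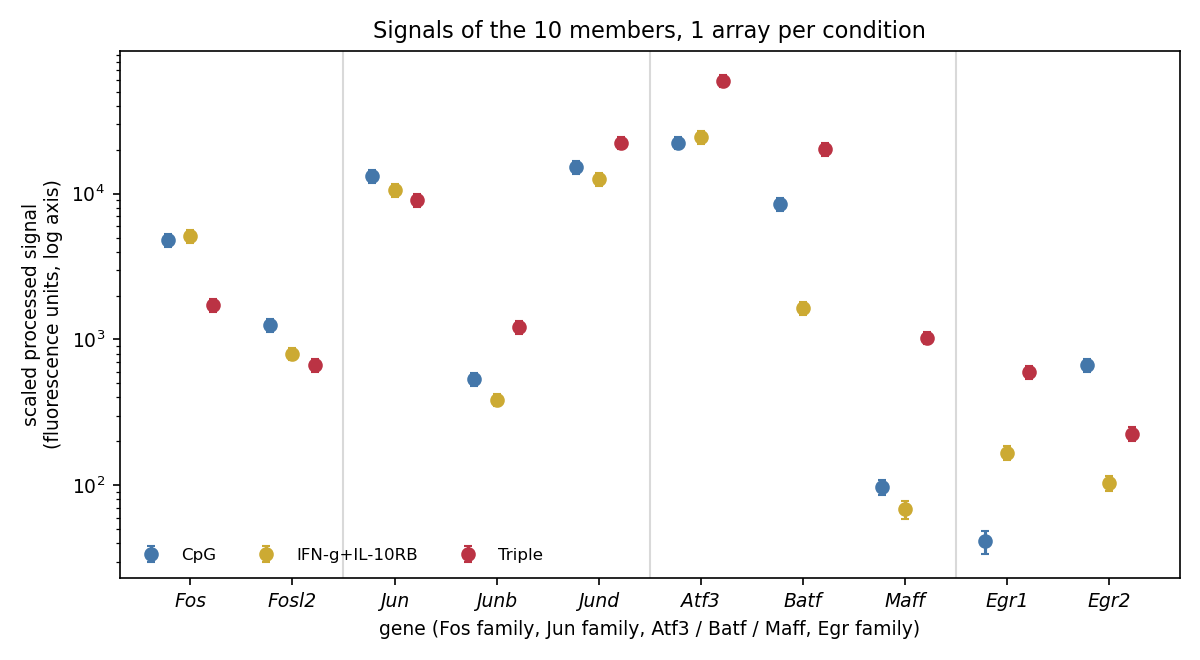
Scaled processed signal (log axis, fluorescence units) of each member on the 3 arrays, with the members in the order Fos family, Jun family, Atf3, Batf, and Maff, and Egr family. Points are 1 array each, bars are the error given by the scanner software, and levels of different genes cannot be set against each other. The Triple point is the highest for Junb, Jund, Atf3, Batf, Maff, and Egr1 and the lowest for Fos, Fosl2, and Jun.

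Fos (NM_010234), the partner of Jun in classical AP-1, was low in Triple. Its probe (chr12:86817900-86817959 in mm9, plus strand) gave 4880 in CpG, 5118 in IFN-g+IL-10RB, and 1674 in Triple. CpG alone and IFN-g+IL-10RB were nearly level, and the array that had both was lower than either. The log2 difference was -1.58 in Triple over IFN-g+IL-10RB, a 2.98-fold lower signal, and -1.49 in Triple over CpG, a 2.80-fold lower signal, with a software error of 0.20 for each. In CpG over IFN-g+IL-10RB the log2 difference was -0.09. Fos stood in 10 spots on each array, and those without an outlier mark ran from 4602 to 5240 in CpG (10 spots), from 4904 to 5254 in IFN-g+IL-10RB (8 spots), and from 1605 to 1730 in Triple (8 spots). No Triple spot came near the spots of the other arrays, and the spot SD was 0.05, 0.04, and 0.04 (log2). Of the 16512 genes detected on all arrays, Fos was number 621 from the lowest in Triple over IFN-g+IL-10RB and number 575 in Triple over CpG.

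Fosl2 (NM_008037), also called Fra-2, is a Fos protein with a weaker activating domain. The brighter of its probes (chr5:32460076-32460135 in mm9) gave 1277 in CpG, 800 in IFN-g+IL-10RB, and 651 in Triple. Its order was the same as that of Jun, with CpG the highest and Triple the lowest, but all differences stayed within 2-fold. The log2 difference was -0.91 in Triple over CpG, 0.65 in CpG over IFN-g+IL-10RB, and -0.26 in Triple over IFN-g+IL-10RB. Scaled to spike-in probes, Triple over CpG passed 2-fold, at -1.01, and with the mean of both probes in place of the brighter one it was -0.21 and CpG over IFN-g+IL-10RB was 0.14. The second Fosl2 probe (chr5:32455088-32455147) was not detected on any array.

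The Jun proteins, which pair with themselves or with Fos, Atf, and Batf proteins, did not move together. Jun (NM_010591, chr4:94716928-94716987 in mm9, minus strand) gave 13371 in CpG, 10550 in IFN-g+IL-10RB, and 8796 in Triple. Jund (NM_010592, chr8:73224436-73224495, plus strand) gave 15531 in CpG, 12629 in IFN-g+IL-10RB, and 21905 in Triple. Both stayed within 2-fold, and they lay on opposite sides in Triple. The log2 difference of Jun was -0.23 in Triple over IFN-g+IL-10RB and -0.55 in Triple over CpG, and that of Jund was 0.83 and 0.55. The software error was 0.20 for each, so the -0.23 of Jun was close to its error. Scaled to a percentile of all probes it was -0.12.

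Junb (NM_008416), a Jun protein that activates less than Jun, was higher in Triple. Its probe (chr8:87501881-87501940 in mm9, minus strand) gave 543 in CpG, 388 in IFN-g+IL-10RB, and 1185 in Triple. The log2 difference was 1.65 in Triple over IFN-g+IL-10RB, which is 3.13-fold, 1.18 in Triple over CpG, which is 2.27-fold, and 0.46 in CpG over IFN-g+IL-10RB. Junb was thus the Jun gene whose Triple signal stood apart from both others by more than 2-fold. It had 1 spot, and on the CpG array the software marked the local background around that spot, which is not the background that was subtracted.

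Atf3 (NM_007498, chr1:192994547-192994606 in mm9, minus strand), a stress-induced factor, gave 22726 in CpG, 24487 in IFN-g+IL-10RB, and 58207 in Triple. As for Fos, CpG and IFN-g+IL-10RB were nearly level, with a log2 difference of -0.13, but Triple lay on the other side. It was 2.44-fold higher than IFN-g+IL-10RB (log2 1.29) and 2.67-fold higher than CpG (log2 1.41), with a software error of 0.20 for each.

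Batf (NM_016767, chr12:87049872-87049929 in mm9, plus strand) gave 8616 in CpG, 1641 in IFN-g+IL-10RB, and 19734 in Triple. The signals of the 2 arrays with CpG were higher than that without it, and that of Triple was the highest. Triple was 12.3-fold over IFN-g+IL-10RB (log2 3.62) and 2.38-fold over CpG (log2 1.25), and CpG alone was 5.17-fold over IFN-g+IL-10RB (log2 2.37). Its rank among the 16512 genes detected on all arrays was 61 from the highest in Triple over IFN-g+IL-10RB and 101 in CpG over IFN-g+IL-10RB. Batf too had 10 spots per array, and those without an outlier mark ran from 8058 to 8973 in CpG, from 1556 to 1743 in IFN-g+IL-10RB, and from 18805 to 20175 in Triple. The 3 arrays did not overlap in any spot. For Batf as for Fos, the spots on 1 array read the same RNA and hold no spread between cultures.

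**Figure D3:**
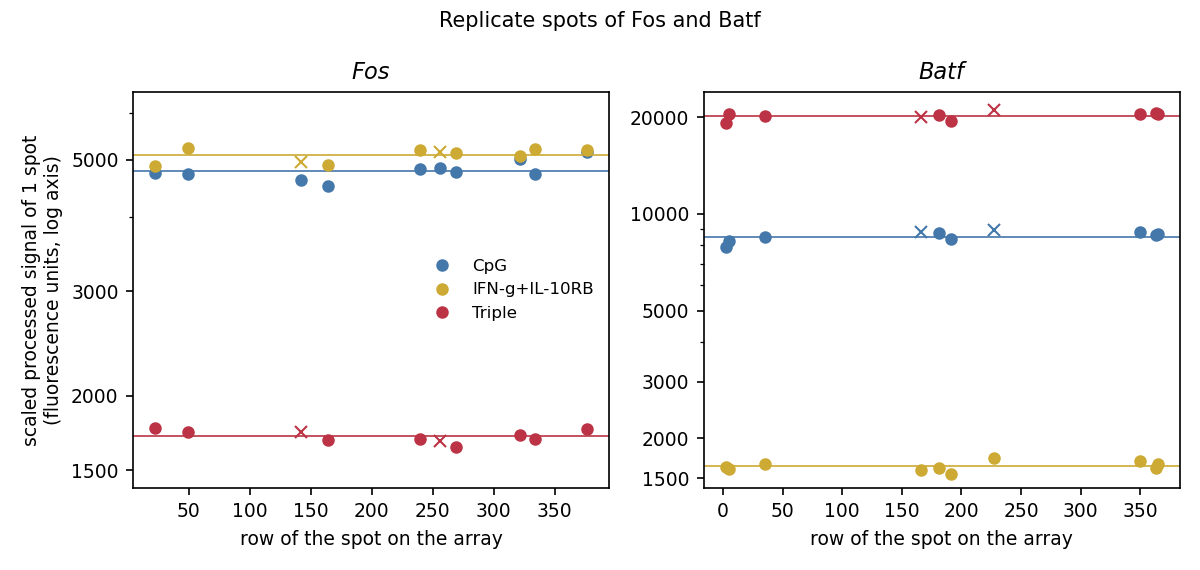
Scaled processed signal (log axis, fluorescence units) of each of the 10 spots of Fos and of Batf against the row of the spot on the array. Filled points are spots used, crosses are spots with an outlier mark that were left out, and lines are the means used. Over the 384 rows of the array the spots of 1 condition lie close to their line, with the Triple spots of Fos below all others and the Triple spots of Batf above all others.

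Fos and Batf lie close together on chromosome 12, with Jdp2 as the only protein-coding RefSeq gene between them. Jdp2, a repressor that pairs with Jun proteins, gave 4043 in CpG, 6334 in IFN-g+IL-10RB, and 11932 in Triple. Its log2 difference was 0.95 in Triple over IFN-g+IL-10RB, 1.62 in Triple over CpG, and -0.67 in CpG over IFN-g+IL-10RB. Of these 3 neighbours, which all encode zipper proteins, Fos was lowest in Triple, and Jdp2 and Batf were highest there. Jdp2 was named for its position, after its values had been seen.

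Maff (NM_010755), a small Maf protein, had the widest range of the members without normexp background correction. Its probe (chr15:79189442-79189501 in mm9, plus strand) gave 99.0 in CpG, 68.7 in IFN-g+IL-10RB, and 1009 in Triple. The arrays with either stimulus alone were dim and within 2-fold of each other, and Triple stood far above both. Triple was 15.1-fold over IFN-g+IL-10RB (log2 3.91, software error 0.25) and 10.6-fold over CpG (log2 3.41, software error 0.22), which ranked 50 and 70 from the highest among the 16512 genes detected on all arrays. With normexp background correction, which also adds an offset to each signal, they were 2.90 and 2.66, and the widest range was then that of Batf, with 3.53 in Triple over IFN-g+IL-10RB. The promoter window shown for Maff is that with the CRE.

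The 3 other genes nearest to Maff, by the Euclidean distance of the 3 centred log2 signals, were Ccr7, Hspa1a, and Kcna3. Ccr7, a chemokine receptor for homing to lymph nodes, was at a distance of 0.15 and gave 319 in CpG, 225 in IFN-g+IL-10RB, and 2892 in Triple. Hspa1a, a heat shock protein with a near-identical copy, Hspa1b, that its probe may also detect, was at 0.33. Its signals were 57.2, 50.2, and 537 in the same order. Kcna3, a potassium channel, was at 0.39, with 39.0, 39.1, and 433. With 3 arrays, likeness of this kind rests on few values.

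The Egr genes differed from each other. Egr1 (NM_007913), on chromosome 18, gave 42.1 in CpG, 167 in IFN-g+IL-10RB, and 584 in Triple. Its lowest signal was in CpG alone and its highest was in Triple, so that the signal with all agents was above that with CpG and that with IFN-g+IL-10RB. The log2 difference was 3.85 in Triple over CpG (14.4-fold, software error 0.30), 1.84 in Triple over IFN-g+IL-10RB (3.58-fold, 0.21), and -2.01 in CpG over IFN-g+IL-10RB (4.03-fold lower, 0.31). The CpG signal was 42.1 where the lowest signal well above background on that array was 23.8, and with normexp background correction these differences were 2.52, 1.46, and -1.06.

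Egr2 (NM_010118, chr10:67004798-67004857 in mm9), a relative of Egr1 with a similar DNA binding domain, gave 680 in CpG, 105 in IFN-g+IL-10RB, and 221 in Triple. In contrast to Egr1, Egr2 was highest in CpG alone. The log2 difference was 2.68 in CpG over IFN-g+IL-10RB (6.40-fold, software error 0.22), -1.56 in Triple over CpG (2.96-fold lower, 0.21), and 1.11 in Triple over IFN-g+IL-10RB (2.16-fold, 0.23). With normexp background correction the first was 1.95 and the last was 0.70, inside 2-fold, and the last was also inside 2-fold with spike-in scaling, at 0.97. Egr3 and Egr4 were not detected on any array. The corepressors of Egr proteins were detected and stayed within 2-fold. Nab1 gave 3606, 2436, and 3752, and Nab2 gave 6434, 4189, and 6345, in the order CpG, IFN-g+IL-10RB, and Triple.

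Of 29 other AP-1, ATF, CREB, and MAF factors, 24 were detected on all arrays. In Triple over IFN-g+IL-10RB, 1 was higher (Nfe2l1), 0 were lower, and 23 were within 2-fold, with a median log2 difference of 0.25. Of the genes detected on all arrays, 5.14% were higher and 8.21% were lower there, with a median of -0.04. In CpG over IFN-g+IL-10RB, 2 were higher and 3 were lower, against 3.71% and 4.8% of the genes detected on all arrays. In Triple over CpG, 3 were higher (Batf2, Crem, and Jdp2) and 1 was lower (Atf7), against 6.04% and 7.01%. Fosl1 was not detected on any array, and Fosb gave between 60.2 and 71.3. Batf2, a relative of Batf that is induced by IFN-g, gave 1902 in CpG, 48176 in IFN-g+IL-10RB, and 59910 in Triple. It was 32.8-fold higher in Triple than in CpG (log2 5.03) and differed by 0.35 (log2) between the arrays with IFN-g, where Batf itself differed by 3.62. Batf3, a factor of dendritic cells, gave 3576, 1411, and 2736, and its log2 difference in CpG over IFN-g+IL-10RB was 1.32.

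Crem, a CRE-binding factor, gave 369 in CpG, 1322 in IFN-g+IL-10RB, and 2033 in Triple. Its log2 difference was -1.86 in CpG over IFN-g+IL-10RB and 2.52 in Triple over CpG, and a second probe that was detected on all arrays gave -1.45 and 2.08. Atf7 gave 9655, 3462, and 4020 in the same order, with log2 1.46 in CpG over IFN-g+IL-10RB, but its dimmer probe gave 0.01, so that its probes disagreed. Nfe2l1, a factor of proteasome and antioxidant genes, gave 538, 396, and 843, with log2 1.12 in Triple over IFN-g+IL-10RB.

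**Figure D4:**
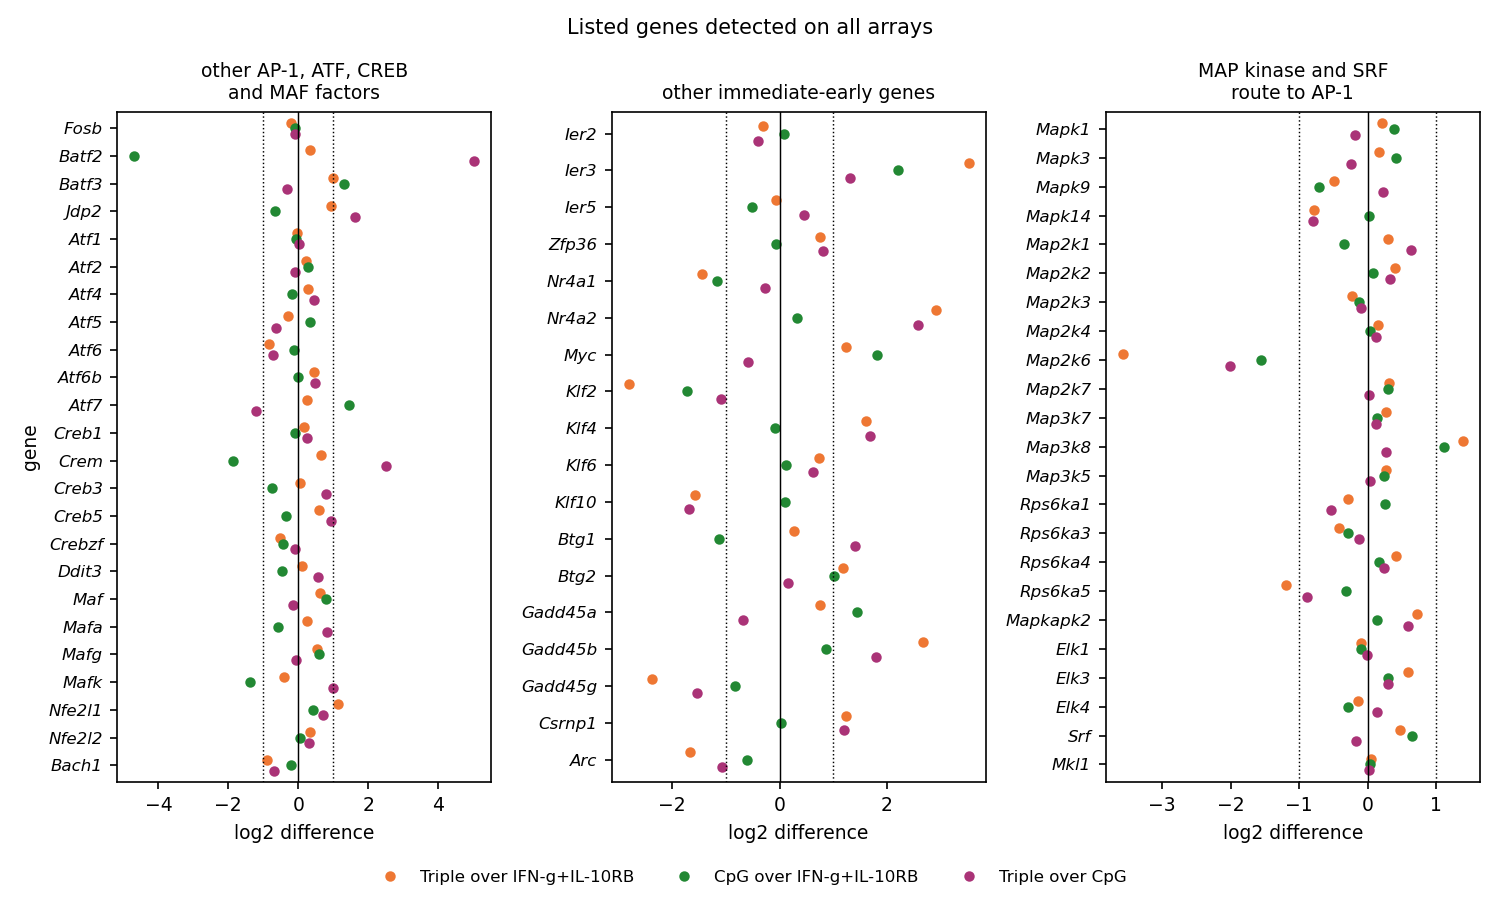
Log2 difference of the other AP-1, ATF, CREB, and MAF factors (24 genes), of other immediate-early genes (18 genes), and of the MAP kinase and SRF route to AP-1 (23 genes), for genes detected on all arrays. Each point is 1 comparison of 2 arrays and dotted lines mark 2-fold. Batf2 and Crem stand out in the first panel, genes on both sides of 0 are seen in the second, and most genes of the third lie within 2-fold, with Map2k6 the farthest out.

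Other immediate-early genes lay on both sides. Of 19 genes, 18 were detected on all arrays. In Triple over IFN-g+IL-10RB, 7 were higher, 5 were lower, and 6 were within 2-fold, with a median log2 difference of 0.75. In CpG over IFN-g+IL-10RB 4 were higher and 3 were lower, and in Triple over CpG 6 were higher and 4 were lower. Among genes detected on all arrays, 5.14% were higher and 8.21% lower in the first of these comparisons, with a median of -0.04. The shares were 3.71% and 4.8% in CpG over IFN-g+IL-10RB, and 6.04% and 7.01% in Triple over CpG. Ier3, a survival factor, gave 1099 in CpG, 234 in IFN-g+IL-10RB, and 2628 in Triple. Ier3 had the order of Batf, with CpG over IFN-g+IL-10RB at log2 2.21 and Triple over IFN-g+IL-10RB at 3.52. Nr4a2, a nuclear receptor, gave 79.4, 62.4, and 459, the order of Maff, with log2 2.91 in Triple over IFN-g+IL-10RB and 2.59 in Triple over CpG. Its dimmer probe gave 26.2, 38.5, and 140, with CpG the lowest and not detected. The log2 difference of that probe was 1.90 in Triple over IFN-g+IL-10RB, and 2.48 against the CpG signal that was not detected. Gadd45b, a stress-response gene, gave 6734, 3627, and 22538, with log2 1.80 in Triple over CpG. Myc gave 1658, 461, and 1059, and was highest in CpG like Egr2, with log2 1.82 in CpG over IFN-g+IL-10RB. Unlike Egr2, Myc stayed within 2-fold in Triple over CpG, at -0.59.

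Several immediate-early genes had their lowest signal in Triple, as Fos did, but some of them were low in CpG too. Klf2, a factor of quiescence, gave 1518 in CpG, 4926 in IFN-g+IL-10RB, and 683 in Triple. Its log2 difference was -2.81 in Triple over IFN-g+IL-10RB and -1.72 in CpG over IFN-g+IL-10RB. Gadd45g gave 3200, 5591, and 1056, with log2 -2.37 in Triple over IFN-g+IL-10RB and -1.54 in Triple over CpG. Klf10 gave 2672, 2457, and 799, with log2 -1.68 in Triple over CpG. Nr4a1, whose relative Nr4a2 was highest in Triple, gave 731, 1623, and 582, with log2 -1.17 in CpG over IFN-g+IL-10RB. In Triple over CpG it stayed within 2-fold, at -0.27. Gadd45b and Gadd45g, and Nr4a1 and Nr4a2, were thus pairs of relatives on opposite sides in Triple over IFN-g+IL-10RB.

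Most kinases and factors that carry signals to AP-1 stayed within 2-fold, as most genes on the array did. Of 24 MAP kinase and SRF route genes, 21 were within 2-fold in Triple over IFN-g+IL-10RB. In CpG over IFN-g+IL-10RB 22 were, and in Triple over CpG 23 were. The medians were 0.19, 0.10, and 0.03 (log2) in this order. In the same order, 5.14%, 3.71%, and 6.04% of the genes detected on all arrays were higher, and 8.21%, 4.8%, and 7.01% were lower. Map3k8, the kinase that TLRs use to reach ERK, gave 1643 in CpG, 748 in IFN-g+IL-10RB, and 1910 in Triple. It was higher on the arrays with CpG, with log2 1.11 in CpG over IFN-g+IL-10RB and 1.39 in Triple over IFN-g+IL-10RB. Map2k6, which activates p38, gave 130, 377, and 30.9, and its log2 difference in Triple over IFN-g+IL-10RB was -3.57, with the Triple signal near the lowest that was well above background there, 26.3. Rps6ka5, a kinase of histones and CREB, gave 255, 313, and 133, with log2 -1.20 in Triple over IFN-g+IL-10RB.

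Genes with AP-1 elements in their textbook promoters were listed as a readout of AP-1, although most of them also answer to NF-kB or other factors. Of 20 genes, 19 were detected on at least 1 array. In Triple over IFN-g+IL-10RB, 10 were higher, 3 were lower, and 6 were within 2-fold, with a median log2 difference of 1.29, and in the other comparisons 8 were higher and 5 were lower in each. The median over genes detected on at least 1 of the 2 arrays of Triple over IFN-g+IL-10RB was -0.04. Over all genes measured, 3.56% were higher and 5.01% lower in Triple over IFN-g+IL-10RB. The shares were 2.75% and 3.19% in CpG over IFN-g+IL-10RB and 4.12% and 4.58% in Triple over CpG. Il1b and Il6, cytokines of inflammation, were not detected in IFN-g+IL-10RB, and their signals of 30090 and 24279 in Triple were at least 1157-fold and at least 934-fold higher. In CpG they were 1445 and 319. Ptgs2, which makes prostaglandins, gave 142 in CpG, 513 in IFN-g+IL-10RB, and 29014 in Triple, and was 212-fold higher in Triple than in CpG.

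Among other genes of that list, Ccnd1, Plau, and Spp1 were lowest in Triple, Mmp12 was lowest in IFN-g+IL-10RB, and Vegfa was lowest in CpG. Ccnd1, Plau, and Vegfa were highest in IFN-g+IL-10RB. Ccnd1, a cyclin that is a textbook target of AP-1, gave 21065 in CpG, 54254 in IFN-g+IL-10RB, and 6253 in Triple, with log2 -3.08 in Triple over IFN-g+IL-10RB. Plau, the urokinase, gave 797, 2097, and 369, with log2 -2.47. Both had their lowest signal in Triple, as Fos did. Unlike Fos, at -0.09, both were also lower in CpG over IFN-g+IL-10RB, at log2 -1.39 and -1.42. A link to Fos was not tested. Mmp12, the macrophage elastase, gave 1994, 149, and 246 and was 13.2-fold higher in CpG than in IFN-g+IL-10RB, and Spp1, osteopontin, gave 15037, 6714, and 2156, with log2 -2.74 in Triple over CpG. Vegfa gave 321, 2541, and 1697, with log2 -3.00 in CpG over IFN-g+IL-10RB.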

How the data were processed

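Total RNA of BMDMs of 3 conditions was labeled with Cy3, and each condition was hybridized to 1 array. The intensities deposited by the authors are the processed signals of Agilent Feature Extraction 10.10.1.1, made by subtracting a background surface fitted across the array (at 100% of the spots) and not scaled between arrays. A second table deposited by the authors holds log2 values. For 99.9% of the probes matched, within 0.01 (log2), each of its columns was the log2 processed signal less 1 constant (constants equal to signals of 368 for CpG, 373 for IFN-g+IL-10RB, and 338 for Triple). The authors' deposited outlier marks and other marks per spot were read as given.

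Controls and outlier spots by the software's mark (0.21% to 0.27%) were dropped. Log2 signals were averaged over the spots of a probe, and the 75th percentile of each array was subtracted. Since under 50% of the probes passed the software's test for signal over background (44.2% on average), only probes that passed it on all arrays entered the percentile, which was 4580 for CpG, 4513 for IFN-g+IL-10RB, and 4401 for Triple. Replicate spots had a pooled SD of 0.09, 0.08, and 0.10 (log2), which gives 0.13 for a difference of 2 spots and holds no spread between cultures. The number of arrays limits the precision. Marks on the local background were not used, since that background was not subtracted, which keeps Junb. The brightest probe by its mean over the arrays stood for a gene. A dim signal was raised to the lowest signal well above background (23.8, 26.7, and 26.3), so that a fold against it is a bound. The exon or UTR under a probe was not determined, since annotation of mm9 was not used here, and the RefSeq table of GRCm38.p6 held all 10 accessions.

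The members and gene lists were chosen with earlier results of these data known, and some listed genes are not reported here. Named are all members, of each list of factors, kinases, immediate-early genes, and promoters the 2 genes with the largest rise and the 2 with the largest fall past 2-fold in each comparison, the 3 genes nearest to Maff, and Actb. Jdp2, Fosb, Fosl1, Egr3, Egr4, Nab1, Nab2, and the cell type markers given were named after their values had been seen. Alternatives were quantile normalization, scaling to the median or to spike-in probes, no scaling, normexp (limma 3.58.1 in R 4.3.3, with an offset of 50), the authors' table, a percentile of all probes, the mean of all probes, outlier spots kept, other filters, and thresholds of 1.5-fold and 3-fold. The code was tested on simulated data. Calculations used Python 3.11.15 with numpy 2.4.6 and pandas 2.3.3.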

Additional observations from a re-analysis of the deposited data

How the results depend on the processing

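Of the 30 differences of the members, 28 kept their side of 2-fold under every alternative run that gave a value, and none changed sign among those called. The exceptions were Egr2 in Triple over IFN-g+IL-10RB, inside 2-fold with normexp background correction (0.70) and spike-in scaling (0.97), and Fosl2 in Triple over CpG, past it with spike-in scaling (-1.01). With a threshold of 3-fold, Atf3 (2.44-fold) and Egr2 (2.16-fold) no longer counted as higher in Triple over IFN-g+IL-10RB. In that comparison 0 members instead of 1 were lower. In Triple over CpG, 2 instead of 5 were higher (Maff and Egr1) and 0 instead of 2 were lower. A stricter threshold can only lower a count. With 1.5-fold, Jund was also higher in Triple over IFN-g+IL-10RB (1.78-fold). Fosl2 was then lower in Triple over CpG (1.88-fold) and higher in CpG over IFN-g+IL-10RB (1.57-fold). Leaving out spots with a mark on the local background, added after the data had been seen, left Junb without a value. In Triple over IFN-g+IL-10RB the median of genes well above background moved up by 0.11 with median scaling, by 0.11 with a percentile of all probes, and by 0.10 with the authors' table, and dropped by 0.14 with spike-in scaling. Over all differences, 22 of 387 values moved by more than the technical SD of 0.13, and the cause was not tested. Leaving out a replicate was not possible with 1 array per condition. No paired analysis was possible because replicate arrays were lacking. Signal over background limits Maff, Egr1, and Egr2, the members with the dimmest arrays.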
